A study of Homo sapiens with 14 samples.

Results

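The genes of polyamine synthesis and breakdown were followed in lines of T-ALL, an acute leukemia of immature T cells, after treatment with AS605240, a small molecule inhibitor of phosphoinositide 3-kinase (PI3K). The 9 genes were *ODC1*, *AMD1*, *SRM*, *SMS*, *SAT1*, *OAZ1*, *OAZ2*, *AZIN1* and *PAOX*, of 19775 genes measured. Members were chosen by name, with earlier results of these arrays known. A probe set was used where the array annotation gave it only 1 of these symbols, which left 19 probe sets, and each gene was represented by its brightest one. A further probe set that names *SAT1* together with *ZSWIM8* was left out.

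The data were 14 arrays of the HG-U133 Plus 2.0 design. They came from 7 established lines, namely TALL-1, Molt-4, HPB-ALL, ALL-SIL, Jurkat, P12-ICHIKAWA and CCRF-CEM, with 2 arrays per line. In each line 1 array came from cells treated for 6 h with AS605240 at the IC50 concentration of that line, and 1 from cells given vehicle, so the dose was not the same in every line. The question was which transcripts depend on PI3K activity in these cells. The line was the replicate, and with 1 array per line and treatment the spread between lines holds the noise of the arrays too. The samples were immortal lines, so they differ from cells taken at diagnosis.

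Levels were the deposited signals, or log2(signal + 16), and every change was the log2 level with AS605240 minus that with vehicle in the same line. A change on this scale understates that of a dim gene. Adjusted p-values came from limma with the line as a block and the Benjamini-Hochberg adjustment over all genes tested, unless another test is named, and a gene passed at an adjusted p under 0.05. Each value is from bulk RNA at a single time, so a shift in the makeup of a culture and a shift of RNA per cell cannot be told apart. Of 9 T-lineage markers, 7 had a signal over 50 on all 14 arrays, while *CD2* did so on 8 and *PTCRA* on 9. The summed T-lineage signal was 7052 to 15306 with vehicle and 6468 to 14564 with AS605240. The B-cell markers *MS4A1* and *PAX5* and the myeloid markers *MPO*, *CD14* and *CSF1R* had a signal over 50 on no array. Other genes of these lists did have one, namely *CD79A* on 12 arrays (up to 386.1), *CD79B* on 5 (up to 159.9) and *LYZ* on all 14 (82.0 to 194.2). Of 6 epithelial and fibroblast markers, *KRT8* and *COL1A1* were over 50 on all 14 arrays and 4 on none. The part of these signals in the results was not tested. P12-ICHIKAWA and TALL-1 were nearly alike with vehicle (Pearson's r of 0.994 over all genes, where other pairs of lines reached 0.908 to 0.953), so results were also computed with them as 1 line. Spike-in RNAs with poly(A) tails had a mean log2 change of 0.22 ± 0.17 (SD, n = 7; above 0 in 6 of 7 lines), and their part in the results was not tested.

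Polyamines are small positively charged molecules, made from ornithine and S-adenosylmethionine, that bind nucleic acids and are needed by dividing cells. Ornithine decarboxylase (*ODC1*) makes putrescine, S-adenosylmethionine decarboxylase (*AMD1*) makes the aminopropyl donor, and spermidine synthase (*SRM*) and spermine synthase (*SMS*) add aminopropyl groups in turn. Antizymes (*OAZ1*, *OAZ2*) bind ornithine decarboxylase and direct it to the proteasome, the antizyme inhibitor (*AZIN1*) binds antizyme in its place, and spermidine/spermine acetyltransferase (*SAT1*) followed by polyamine oxidase (*PAOX*) takes the products back down. *ODC1* is a long known target of Myc, which binds the E-box CACGTG together with its partner Max.

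The promoters of the synthesis genes are shown first, since *SRM* and *ODC1* had the largest decreases among the members and were the members with a CACGTG in their windows. RefSeq windows of 300 bases, from 250 before to 50 after a transcript start (build GRCh38.p14), were found for 7 of the 9 members, and 10 windows were searched. CACGTG reads the same on both strands. It was found in 2 of these 10 windows, against 7.26% of all 35116 windows. In *SRM* it begins 199 bases before the start, and all 250 upstream bases, at chr1:11060019-11060268 on the minus strand, are printed below with the motif in capitals. *ODC1* has windows for a pair of starts, of which the downstream one holds the motif at 29 bases before the start and again at base 6 of the transcript. A stretch of 60 bases around both, at chr2:10448002-10448061 on the minus strand, is printed with the motif in capitals.
SRM: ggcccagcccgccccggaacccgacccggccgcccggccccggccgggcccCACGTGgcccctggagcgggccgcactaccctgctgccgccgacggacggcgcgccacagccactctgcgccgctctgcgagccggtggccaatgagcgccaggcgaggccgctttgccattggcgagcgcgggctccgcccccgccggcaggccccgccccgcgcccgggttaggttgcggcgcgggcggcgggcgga
ODC1: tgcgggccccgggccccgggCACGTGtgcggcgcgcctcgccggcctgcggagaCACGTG
The windows of *AMD1*, *SMS*, *SAT1*, *OAZ1* and *OAZ2* held no CACGTG. A match of letters is not evidence of binding, and binding was not measured on these arrays. Whether the motif has a part in the decreases was not tested.

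Of the 4 synthesis genes 3 fell, and *SAT1* rose, after 6 h of AS605240. Of the 9 members, 3 were lower (*ODC1*, *AMD1* and *SRM*), 3 were higher (*SAT1*, *OAZ2* and *PAOX*) and 3 did not pass the test. Over all genes, 7.03% were lower and 11.8% were higher at the same threshold. *SRM* alone of the 9 was also past a fold change of 1.5, a threshold that 1.57% of all genes passed together with the adjusted p. The median change of the members was 0.0015 on the log2 scale, against 0.013 for all genes. In each of the 9 genes the levels of the 7 vehicle arrays overlapped those of the 7 AS605240 arrays, so each change is read within lines.

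**Figure D1:**
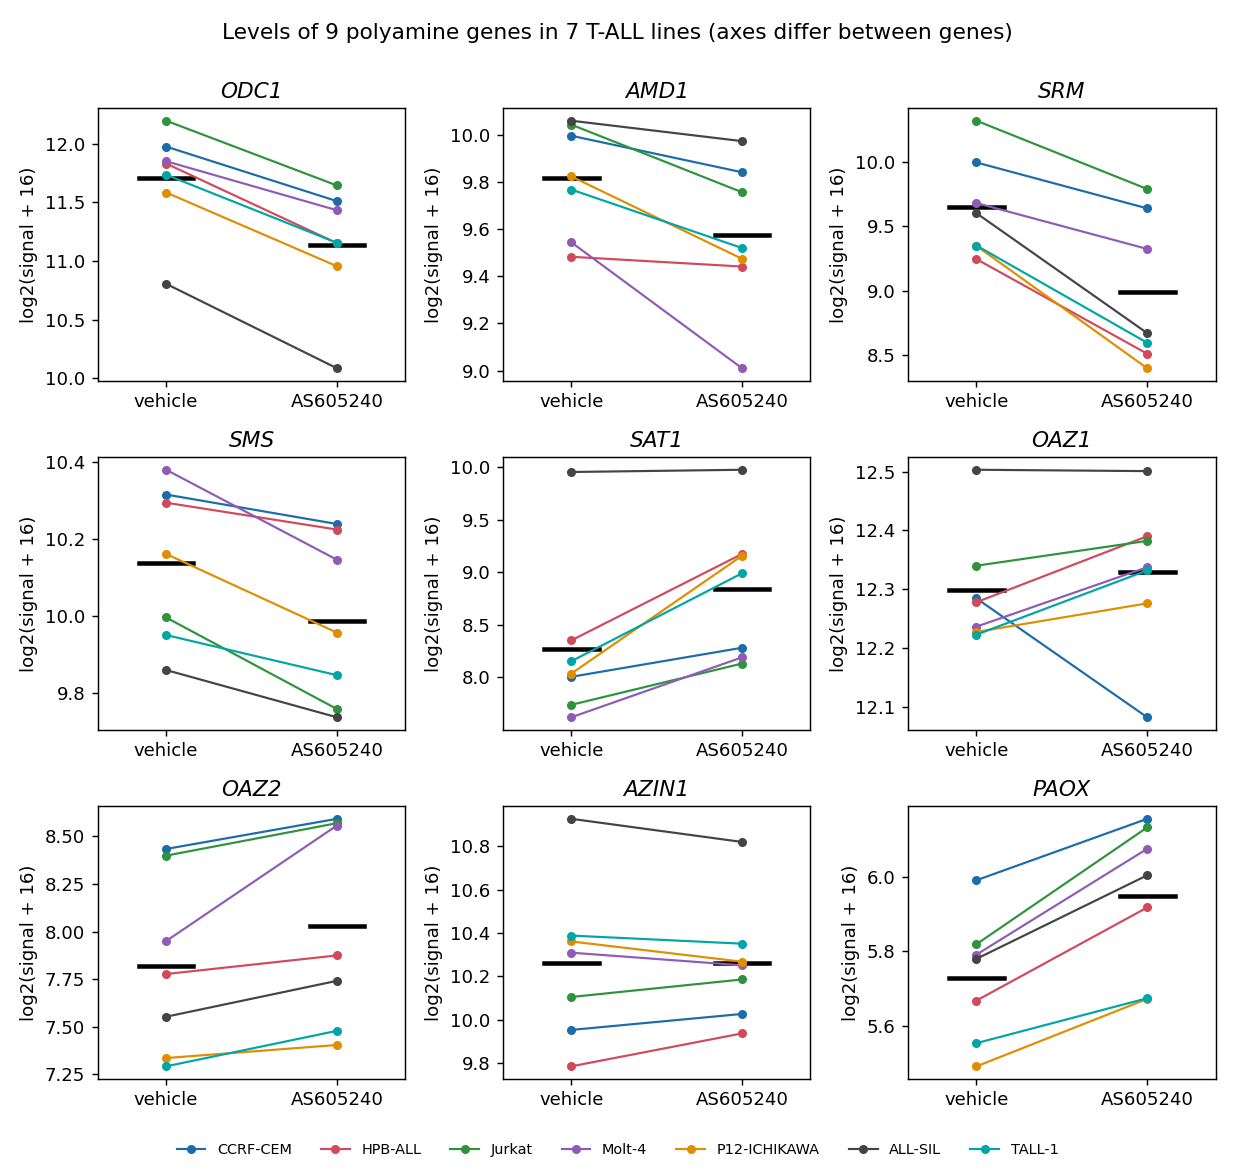
Level of each of the 9 genes as log2(signal + 16), on axes that differ between genes, with vehicle and with AS605240 in 7 T-ALL lines. A colored line joins the pair of arrays of a cell line and the black bars are the means. *ODC1* and *SRM* slope down and *SAT1* slopes up in every line, with ALL-SIL nearly flat for *SAT1*.

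*SRM* had the largest change of the members. Its signal with vehicle was lowest in HPB-ALL, at 590.4, with a median of 760.7 and a highest value of 1263 in Jurkat. With AS605240 it was lowest in P12-ICHIKAWA, at 320.7, with a median of 390.9 and a highest value of 869.0, again in Jurkat. Every line was lower with AS605240, and Jurkat and CCRF-CEM, the highest lines with vehicle, were still the highest after treatment. The mean log2 level went from 9.65 ± 0.39 to 8.99 ± 0.58 (SD, n = 7), a change of -0.66 (SE 0.081, adjusted p = 1.09e-04), or 1.58-fold lower. The decrease was largest in P12-ICHIKAWA (-0.95) and ALL-SIL (-0.93), and least in CCRF-CEM and Molt-4 (-0.36 in both). Among 19775 genes it ranked 66 from the largest mean decrease.

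*ODC1*, the entry to the pathway, had the most even response of the genes that fell. The vehicle signal was 1773 in ALL-SIL, the lowest line, with a median of 3627 and a highest value of 4677 in Jurkat. With AS605240 the signal was 1070 in ALL-SIL, with a median of 2264 and 3185 in Jurkat. ALL-SIL lay below all other lines in both treatments, and its higher array (10.80 on the log2 scale) was below the lower array of the next line, P12-ICHIKAWA (10.96). Neighbouring lines in the rest of the order, from Jurkat through CCRF-CEM, Molt-4, HPB-ALL and TALL-1 to P12-ICHIKAWA, had overlapping pairs of arrays. A pair holds the treatment change, so such an overlap does not show that these lines are alike. The vehicle arrays alone had the same order, from 12.20 in Jurkat to 11.58 in P12-ICHIKAWA on the log2 scale. With AS605240 only HPB-ALL (11.15) and TALL-1 (11.16) changed places. The mean log2 level was 11.71 ± 0.44 with vehicle and 11.13 ± 0.52 with AS605240 (SD, n = 7). The change was -0.58 (SE 0.058, adjusted p = 3.27e-05), or 1.49-fold lower, at rank 107 from the largest decrease. It lay between -0.72 in ALL-SIL and -0.42 in Molt-4, with an SD over lines of 0.11, against 0.25 for *SRM*.

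*AMD1*, which supplies the aminopropyl donor to both synthases, fell less and less evenly. Its signal with vehicle ran from 699.5 in HPB-ALL, with a median of 890.4, to 1052 in ALL-SIL. With AS605240 it ran from 499.4 in Molt-4, with a median of 718.2, to 989.7 in ALL-SIL. All 7 lines were lower with AS605240, and the change was -0.24 (SE 0.067, adjusted p = 0.0199). Molt-4 changed the most, by -0.53, and HPB-ALL and ALL-SIL the least, by -0.041 and -0.087. Without Molt-4 the change was -0.19 (adjusted p = 0.0599), and the call was also lost without Jurkat or without P12-ICHIKAWA. A dimmer probe set of *AMD1* changed by -0.12 and did not pass (adjusted p = 0.187), with 5 lines lower and 2 higher.

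*SMS*, which makes spermine, did not pass the test. Its signal was 912.4 to 1317 with vehicle and 836.5 to 1193 with AS605240, with medians of 1129 and 977.5. It was lower in 7 of 7 lines, by 0.070 in HPB-ALL to 0.24 in Jurkat, and the mean change was -0.15 (SE 0.054, adjusted p = 0.0724). CCRF-CEM, Molt-4 and HPB-ALL lay above the other lines in both treatments.

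**Figure D2:**
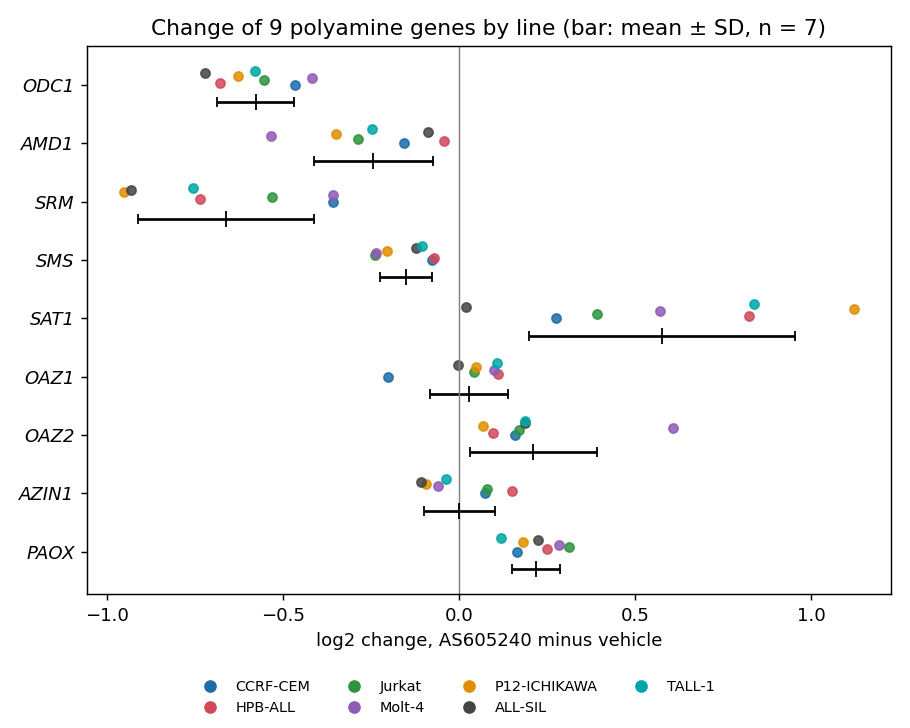
Log2 change (AS605240 minus vehicle) of the 9 genes in each of 7 T-ALL lines, as colored points offset vertically so that equal values can be seen, with the mean ± SD (n = 7) as a black bar. All points of *ODC1*, *AMD1*, *SRM* and *SMS* lie below 0, and all points of *SAT1*, *OAZ2* and *PAOX* lie above it.

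*SAT1*, the acetyltransferase that starts polyamine breakdown and export, had the largest increase of the members. Its vehicle signal was 180.9 in Molt-4, the lowest line, with a median of 246.6 and a highest value of 977.3 in ALL-SIL. The signal with AS605240 was 264.7 in Jurkat, the lowest line, with a median of 493.2 and 992.0 in ALL-SIL. ALL-SIL stood well above the other lines with vehicle, at 9.96 on the log2 scale against 7.62 to 8.35, and hardly moved. The change of its mean log2 level, from 8.27 ± 0.78 to 8.84 ± 0.68 (SD, n = 7), was 0.58 (SE 0.11, adjusted p = 0.00199), or 1.49-fold higher, and it was above 0 in 7 of 7 lines. P12-ICHIKAWA had the largest change, of 1.12, followed by TALL-1 (0.84), HPB-ALL (0.82), Molt-4 (0.57), Jurkat (0.39), CCRF-CEM (0.28) and ALL-SIL (0.021). With P12-ICHIKAWA and TALL-1 counted as 1 line, the change was 0.51 (adjusted p = 0.00561). It ranked 234 from the largest mean increase among 19775 genes. All 3 probe sets that name *SAT1* alone passed among probe sets, with changes of 0.58, 0.58 and 0.52 (adjusted p = 0.00149, 0.00192 and 0.00793). They put the lines in similar order, with P12-ICHIKAWA, HPB-ALL and TALL-1 highest and ALL-SIL lowest in each.

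**Figure D3:**
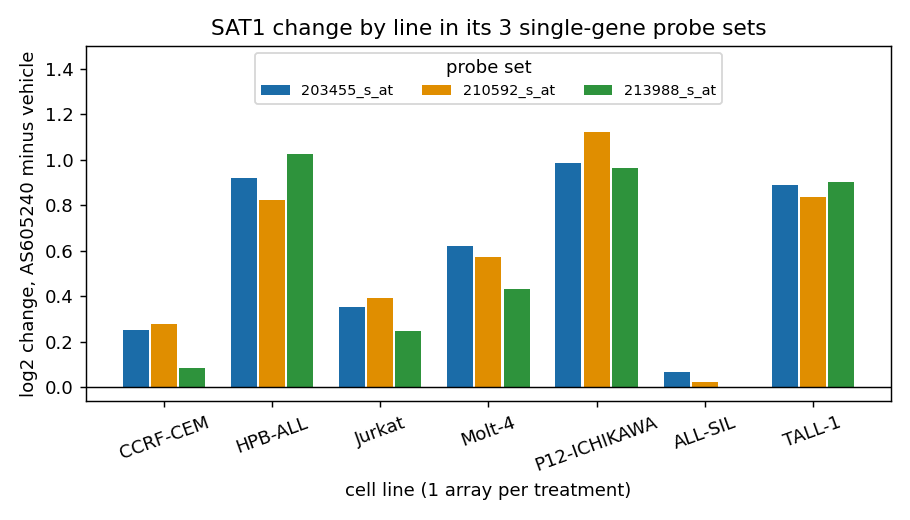
Log2 change of *SAT1* (AS605240 minus vehicle) in 7 T-ALL lines for its 3 probe sets, with 1 bar per probe set and no error bar, since each line has 1 array per treatment. Bars of P12-ICHIKAWA, HPB-ALL and TALL-1 lie between 0.82 and 1.12, and those of ALL-SIL between -0.0052 and 0.067.

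*PAOX*, which oxidizes the acetylated polyamines that *SAT1* makes, was dim. Its brightest probe set had a signal of 29.0 to 47.6 with vehicle (median 38.9), reached 55.3 with AS605240 (median 48.2), and was over 50 on 3 of 14 arrays. It rose by 0.22 (SE 0.054, adjusted p = 0.0111), within 0.12 in TALL-1 and 0.31 in Jurkat. The poly(A) spike-ins had a mean change of the same size, 0.22, whose part in this rise was not tested. The other 3 probe sets of *PAOX* were over 50 on no array and did not pass, with changes of -0.023, 0.17 and 0.090. Taken as the mean of its probe sets, *PAOX* had a change of 0.11 that did not pass (adjusted p = 0.110).

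Of the regulators of ornithine decarboxylase protein, *OAZ1* and *AZIN1* did not pass and *OAZ2* rose. *OAZ1* had a signal of 4764 to 5789 with vehicle and 4320 to 5780 with AS605240, with medians of 4950 and 5159. Its vehicle levels spanned only 1.21-fold over the lines, the narrowest range of the 9 members, against 5.05-fold for *SAT1*. Its change was 0.030 (SE 0.058, adjusted p = 0.803), and CCRF-CEM stood below the other lines at -0.20. *AZIN1* had a signal of 866.0 to 1931 with vehicle and 964.0 to 1792 with AS605240, with medians of 1253 and 1203. Its change was 0.0015 (SE 0.057, adjusted p = 0.992), with 4 lines lower and 3 higher. ALL-SIL was the highest line for *AZIN1* and *OAZ1*, and both of its arrays lay above those of every other line.

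*OAZ2*, the other antizyme among the members, had a signal of 140.7 in TALL-1 to 329.8 in CCRF-CEM with vehicle (median 203.3). With AS605240 it ran from 153.4 in P12-ICHIKAWA to 369.9 in CCRF-CEM (median 218.7). CCRF-CEM, Jurkat and Molt-4 lay above the other 4 lines in both treatments. The change was 0.21 (SE 0.069, adjusted p = 0.0461), higher in 7 of 7 lines. Molt-4 changed by 0.61 and the other lines by 0.069 to 0.19, and without Molt-4 the mean was 0.14 (adjusted p = 0.116). The call was lost on leaving out any line but P12-ICHIKAWA, with an adjusted p of 0.0530 without HPB-ALL, 0.0708 without CCRF-CEM, 0.0788 without Jurkat, 0.0799 without ALL-SIL and 0.0852 without TALL-1. Molt-4 also had the largest change of the poly(A) spike-ins, of 0.54. The mean spike-in change was 0.22, near that of *OAZ2*, and the part of both in these values was not tested. A dimmer *OAZ2* probe set also rose, by 0.24 (adjusted p = 0.0327 among probe sets), while the brighter one missed the threshold there (adjusted p = 0.0502).

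Counted by probe set, 3 of the 19 passed as lower, 5 passed as higher and 11 missed the threshold. Of all 42892 probe sets with a gene symbol, 6.03% were lower and 10.4% were higher.

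The design allowed 5 pairs of members with related roles to be compared within lines by an exact two-sided sign-flip permutation test, for which the smallest p that 7 lines allow is 0.0156. None passed after adjustment over the 5 pairs, where a pair alone at that smallest p could not pass. The change of *SRM* was below that of *SMS* in 7 of 7 lines, by 0.51 ± 0.27 on average (SD, n = 7; exact p = 0.0156, adjusted p = 0.0521). That of *ODC1* was below that of *AMD1* in 6 of 7 lines, with a mean difference of -0.33 ± 0.26 (SD, n = 7; exact p = 0.0313, adjusted p = 0.0521), and Molt-4 was the exception at 0.12. *OAZ1* minus *OAZ2* gave -0.18 ± 0.19 (SD, n = 7; exact p = 0.0313, adjusted p = 0.0521), below 0 in 6 of 7 lines and lowest in Molt-4 at -0.51. *SAT1* minus *PAOX* gave 0.36 ± 0.40 (SD, n = 7; exact p = 0.0781, adjusted p = 0.0977), above 0 in 6 of 7 lines. *AZIN1* minus *OAZ1* gave -0.028 ± 0.16 (SD, n = 7; exact p = 0.703), with the lines on both sides of 0.

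Other genes that feed, drain or use polyamines were taken from a list of 29, of which 27 were measured. The list was written with the study's called probe sets of these arrays known, so its counts are a description and not an independent test. Of these 27 genes, 3 fell, 5 rose and 19 did not pass, with a median change of 0.0087, against 7.03% lower and 11.8% higher over all genes.

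Among 7 other enzymes and regulators, 3 were higher and none lower by their brightest probe sets. Over all genes 11.8% were higher and 7.03% lower. *SMOX*, which oxidizes spermine back to spermidine, rose most by its brightest probe set. Its signal was 10.9 in ALL-SIL to 124.5 in Jurkat with vehicle (median 84.0) and 27.0 in ALL-SIL to 268.6 in HPB-ALL with AS605240 (median 153.3). The change was 0.88 (SE 0.11, adjusted p = 1.62e-04), higher in 7 of 7 lines, from 0.34 in CCRF-CEM to 1.27 in TALL-1. By brightest probe sets it was larger than that of any member. A dimmer probe set rose by 0.60 (adjusted p = 8.67e-04 among probe sets). Another, over 50 on no array, changed by 0.052 and did not pass (adjusted p = 0.678 among probe sets). As the mean of its probe sets *SMOX* changed by 0.51. By that measure *SAT1* (0.56), *SRM* (-0.66) and *ODC1* (-0.58) changed more. *SAT2*, a relative of *SAT1*, rose by 0.62 (SE 0.12, adjusted p = 0.00232), higher in 6 of 7 lines, but its signal was over 50 on only 6 of 14 arrays, and in ALL-SIL it was 1.18 with vehicle and 0.894 with AS605240. It was also dim with vehicle in TALL-1 (11.6), P12-ICHIKAWA (15.2) and Molt-4 (17.6), the lines with its largest changes, and its mean change was 0.82 with an offset of 4 and 0.33 with an offset of 64. On this log2 scale CCRF-CEM, Jurkat and ALL-SIL had the 3 smallest changes in *SAT1*, *SMOX* and *SAT2* alike. In ALL-SIL, however, *SAT2* was near background, and the *SMOX* signal went from 10.9 to 27.0, against 120.6 to 268.6 in HPB-ALL. The place of ALL-SIL for *SMOX* therefore depends on the offset. *ARG2*, an arginase that makes ornithine, had a change of 0.17 (SE 0.055, adjusted p = 0.0460) in its brightest probe set and -0.34 in a dimmer one (adjusted p = 0.00817 among probe sets), so its direction was not settled. It also lost its call without any 1 of the 7 lines.

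The remaining genes of that group did not pass. *AZIN2* had a change of 0.18 (adjusted p = 0.0901), and *OAZ3* and *ARG1* were over 50 on no array.

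**Figure D4:**
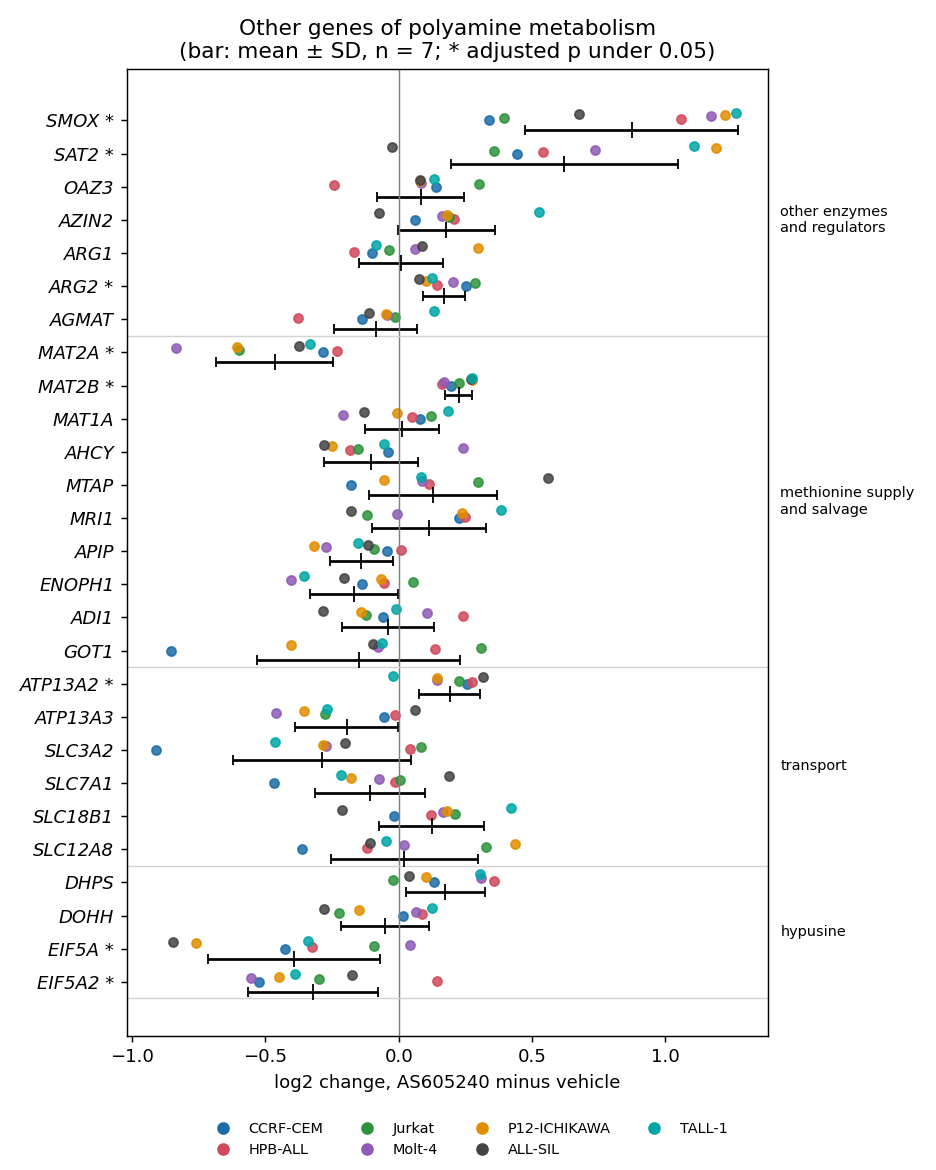
Log2 change (AS605240 minus vehicle) of 27 other genes of polyamine metabolism in 7 T-ALL lines, as colored points offset vertically, with the mean ± SD (n = 7) as a black bar and an asterisk where the adjusted p was under 0.05. *SMOX* and *SAT2* lie farthest to the right, and *MAT2A*, *EIF5A* and *EIF5A2* are the genes with an asterisk to the left of 0.

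Of 10 genes of methionine supply and salvage, 1 was lower and 1 higher, and they are the subunits of the same enzyme. Over all genes 7.03% were lower and 11.8% higher. *MAT2A*, the catalytic subunit of S-adenosylmethionine synthetase outside the liver, had a signal of 1240 to 2267 with vehicle and 809.8 to 1504 with AS605240, with medians of 1421 and 1086. It fell by 0.47 (SE 0.075, adjusted p = 7.37e-04) and was lower in 7 of 7 lines, most of all in Molt-4 at -0.83. Its other probe set changed by -0.51 (adjusted p = 1.01e-04 among probe sets). *MAT2B*, the regulatory subunit, rose by 0.23 (SE 0.053, adjusted p = 0.00822), and its changes lay close together, between 0.16 and 0.28. The mean change of the poly(A) spike-ins, 0.22, was of about this size, and its part in the *MAT2B* rise was not tested. Enzymes of methylthioadenosine salvage such as *APIP* (-0.14, adjusted p = 0.124), *ENOPH1* (-0.17, adjusted p = 0.0987) and *ADI1* (-0.039, adjusted p = 0.776) did not pass.

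Transport gave 1 gene higher of 6 measured, where 11.8% of all genes were higher. *ATP13A2*, a lysosomal polyamine exporter, had a change of 0.19 (SE 0.059, adjusted p = 0.0355), higher in 6 of 7 lines, at a signal of 18.8 to 91.0, and when each line was left out in turn it passed in 1 of 7 cases (adjusted p = 0.0946 without ALL-SIL). The mean change of the poly(A) spike-ins was 0.22, and its part in the rise of *ATP13A2* was not tested. *SLC3A2* (-0.29, adjusted p = 0.0593), *ATP13A3* (-0.20, adjusted p = 0.0727) and *SLC7A1* (-0.11, adjusted p = 0.373) did not pass. *SLC3A2* and *ATP13A3* each passed as lower under 4 of 15 alternative settings. The change of *SLC3A2* was -0.91 in CCRF-CEM, and the mean without that line was -0.18.

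Hypusine, which is made from spermidine, is carried by the translation factors *EIF5A* and *EIF5A2*, and both were lower in their brightest probe sets. The vehicle signal of *EIF5A* spanned 150.7 in ALL-SIL to 6700 in Jurkat (median 704.4), and that with AS605240 76.8 to 6284 in the same lines (median 523.5). Its change was -0.39 (SE 0.096, adjusted p = 0.0109), lower in 6 of 7 lines, with ALL-SIL lowest at -0.84 and Molt-4 at 0.043. It did not pass with an offset of 4 (adjusted p = 0.0516), and of its dimmer probe sets 1 passed (-0.30, adjusted p = 0.0246 among probe sets) and 1 did not (-0.16, adjusted p = 0.388). *EIF5A2* had a change of -0.32 (SE 0.080, adjusted p = 0.0119), lower in 6 of 7 lines, with HPB-ALL higher at 0.15. Of its dimmer probe sets 1 passed (-0.23, adjusted p = 0.0270 among probe sets) and 1 did not (-0.078, adjusted p = 0.579). The enzymes that make hypusine, *DHPS* (0.18, adjusted p = 0.0718) and *DOHH* (-0.051, adjusted p = 0.680), did not pass in their brightest probe sets. A dimmer probe set of *DHPS* rose by 0.20, higher in 7 of 7 lines (adjusted p = 0.0459 among probe sets), and the gene passed under 4 of 15 alternative settings.

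To place the most variable member and the most changed one among other genes, Pearson's r of levels was taken over the 14 arrays with 9245 genes of mean log2 level over 6. The 14 points share 7 lines, and both treatments enter the correlation, so the values describe these arrays only. The genes most like *SAT1*, whose vehicle levels differed most between lines, were *TUBD1* (r = 0.943), *TBC1D22B* (r = 0.936) and *MEF2A* (r = 0.915). Their changes with AS605240 were 0.27, 0.29 and 0.17 (adjusted p = 0.0136, 0.00208 and 0.0571), against 0.58 for *SAT1*. Those most like *SRM* were *WDR77* (r = 0.962), *SRPRB* (r = 0.954) and *CHLSN* (r = 0.954), which changed by -0.66, -0.58 and -0.55 with AS605240.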

How the data were processed

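Total RNA of 7 T-ALL lines, each treated with AS605240 or vehicle, was labeled with biotin and hybridized to HG-U133 Plus 2.0 arrays. The authors deposited linear signal intensities, summarized per probe set with iterPLIER (PLIER in Affymetrix Expression Console 1.3.1.187, per the submitters' processing notes), with any earlier normalization not stated in those sources. Log2 was taken after adding 16, the authors' offset. Probe sets were named from GEO's platform annotation, with symbols updated through RefSeq gene IDs. Of 54675 probe sets, 62 controls were left out, 41091 named 1 gene, 1801 several and 11721 none here. Genes, by their brightest single-gene probe set, and the 42892 probe sets with a symbol were tested in R 4.3.3 with limma 3.58.1 (lmFit, eBayes), the line as block. The labels give the pairing, by cell line. The script was tested on simulated data. The number of arrays limits the precision. Named genes were all members, the other pathway genes that passed, up to 3 per group that did not, and the 3 genes most like *SAT1* and *SRM*; *MTAP* and *AGMAT* were added after their values were seen. Members and lists were chosen with earlier results of these arrays known, the study's list of called probe sets among them. Cross-hybridization with transcripts of related pseudogenes was not tested. Alternatives were other offsets, normalization, centring, filters, probe set rules and sets of lines.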

Additional observations from a re-analysis of the deposited data

Results flagged for a closer look

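Sets of 7 values, 1 per line, were screened for a line far from the others, with 40 sets examined (levels and changes of members, changes of the other genes that passed, and pair differences). The gap to the nearest line, as a share of the range, had to exceed 0.568. For independent values about 1 in 20 such sets is singled out by chance, and 4 of 40 were here. The sets share arrays, and P12-ICHIKAWA and TALL-1 were nearly alike, so that rate is only a rough guide. The log2 level of *SAT1* with vehicle was 9.96 in ALL-SIL, against 7.62 to 8.35 in the other lines. *OAZ1* with vehicle was 12.50 in ALL-SIL, against 12.22 to 12.34. The change of *OAZ1* was -0.20 in CCRF-CEM, against -0.0023 to 0.11. The change of *OAZ2* was 0.61 in Molt-4, against 0.069 to 0.19.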

How the results depend on the processing

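The changes of *ODC1*, *SRM* and *SAT1* kept their direction and passed under 14 of 15 alternatives, all but that without the replicate block, at -0.61 to -0.55, -0.71 to -0.61 and 0.49 to 0.67. Without the replicate block, the counts of members, member probe sets and other pathway genes were 0 in both directions. *AMD1* lost its call under 5 alternatives and *OAZ2* under 11, *OAZ2* also with P12-ICHIKAWA and TALL-1 as 1 line (adjusted p = 0.0560). *SMS* passed under 4, among them centring on the median (adjusted p = 0.0342) and an offset of 64 (adjusted p = 0.00783). With an offset of 64, 5 member probe sets were lower. Other pathway genes lower numbered 5 with centring on the median and 6 with only genes of signal over 50 in at least 7 arrays. Those higher numbered 3 with an offset of 4 and 3 with centring on the median, and ranged from 3 to 4 with each line left out. With each gene taken as the average of its probe sets, *ARG2* turned to -0.086 (adjusted p = 0.344). In that setting *SRM* minus *SMS* (-0.51, adjusted p = 0.0260), *ODC1* minus *AMD1* (-0.39, adjusted p = 0.0260), *OAZ1* minus *OAZ2* (-0.20, adjusted p = 0.0260) and *SAT1* minus *PAOX* (0.45, adjusted p = 0.0391) passed in the exact sign-flip permutation test, while *AZIN1* minus *OAZ1* was 0.046. No other alternative computed for the pairs made any of them pass. With P12-ICHIKAWA and TALL-1 as 1 line, the adjusted p of that test was 0.104 for *SRM* minus *SMS*, *ODC1* minus *AMD1* and *OAZ1* minus *OAZ2*. It was 0.195 there for *SAT1* minus *PAOX*, and fewer lines also raise the smallest p possible. *SRM* and *SMS* have a single probe set each, so their difference did not change with averaging. Its adjusted p changed only through the other pairs in the adjustment. The cause of the other shifts was not tested. Signal near background limits *PAOX*, *SMOX* in ALL-SIL, and *SAT2* in ALL-SIL, TALL-1, P12-ICHIKAWA and Molt-4.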

Other observations

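*MTAP*, the enzyme that salvages the methylthioadenosine released at each step of spermidine and spermine synthesis, was represented in the comparison by a probe set that was over 50 on no array. A different probe set, chosen after its values were seen, had a signal of 252.2 with vehicle and 199.7 with AS605240 in HPB-ALL, and 222.0 and 167.7 in Molt-4. In the other 5 lines it was at most 4.99 in either treatment. The probe sets of *MTAP* disagreed for ALL-SIL, where 1 had a signal of 70.7 with vehicle and 51.1 with AS605240 and another 50.4 and 31.8. *AGMAT*, named for agmatinase, which makes putrescine in bacteria, had in the brightest of its 3 probe sets a signal of 1290 with vehicle and 1170 with AS605240 in CCRF-CEM, against 5.46 to 13.6 in the other lines. A dimmer probe set was also highest in CCRF-CEM (41.2 with vehicle), whereas the remaining one was lowest there with vehicle (11.02, against 12.9 to 31.8).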
